A study of Homo sapiens with 4 samples.

Results

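Poly(A) site clusters (PACs) that lie in introns of protein-coding genes were described here in 2 human esophageal squamous cell carcinoma (ESCC) cell lines, KYSE30 and TE-1. Cells received L-lactate (20 mM for 24 h) or PBS as control, and 1 PAS-seq library was sequenced for each of the 4 combinations. PAS-seq reads the junction of an mRNA with its poly(A) tail, so each PAC marks where transcripts were cleaved, and its level is given as TPM, the tags scaled to the size of the library. The cell line field of the control libraries reads KYSE32 and TE-3, while their titles name the same lines as the treated libraries, and the titles were followed. A PAC was a member if its dominant site, taken from the library with the highest TPM, lay within a protein-coding gene of GENCODE v44 on the same strand and in no exon of any same-strand transcript. This gave 917 intronic PACs in 819 genes, out of 17627 PACs in all, of which 13692 were in 3′ UTRs. Every listed PAC was above 1 TPM, and the weakest member reached 1.44 TPM in its best library.

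Intronic polyadenylation arises when the cleavage machinery acts on a signal within an intron before that intron is spliced. The transcript then ends early, and it can encode a shortened protein or no protein. U1 snRNP, which binds 5′ splice sites, and kinases such as CDK12 that keep polymerase elongating are known to hold it back, while the PCF11 gene is a textbook case of an intronic site within a cleavage factor's own gene.

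With 1 library per condition there was no replicate check, so no test was run and no p-value is given. The 95% Wilson intervals below cover counting error of tags or PACs only. The libraries held 7174991 tags (KYSE30 L-lactate), 7425554 (KYSE30 control), 8468958 (TE-1 L-lactate) and 10393799 (TE-1 control). Their lists began at 8 to 11 tags. A single site under 3 TPM was dropped by the authors within its library, so "not listed" means below such a limit and not absent. Of 10 squamous and epithelial marker genes 8 were listed in at least 1 library, KRT5 and KRT14 in none, and of 4 markers of other cells only COL1A1 was listed, at 4.84 and 5.39 TPM in TE-1. TP63, KRT6A and CDH1 had 20.3 to 228 TPM in KYSE30, and in TE-1 only CDH1 was listed, at 1.30 TPM with L-lactate, whereas KRT17 was listed in TE-1 alone.

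The members were of 2 kinds, a division made after the data were seen. Of the 917, 219 (23.9%) lay within 24 nt past the annotated end of a same-strand transcript, 125 of them exactly 1 nt past it, so their ends are known transcript ends that the exon rule narrowly missed. For 42 of the 219, the transcript that ended there belonged to another gene than the one that held the intron. These PACs held the highest levels. RPS29, a ribosomal protein gene, had 2529, 2665, 1671 and 1872 TPM (KYSE30 L-lactate, KYSE30 control, TE-1 L-lactate, TE-1 control, an order kept below), and the end of LDHB, the lactate dehydrogenase B gene, inside an intron of the coding gene model ENSG00000285854 had 1418, 1322, 1854 and 1872 TPM. All 10 members of highest mean TPM were of this kind, among them also the ends of GPI, PDCD6, ARL6IP1, PCBD1, TMED3, PPP3R1, UNG and RPL30. On average over the libraries, the 219 PACs held 74.9% of the TPM of all members, and RPS29 and LDHB alone held 32.6%. The other 698 PACs, in 623 genes, lay farther from any annotated end, at a median distance of 2665 nt, and 73.9% of them lay over 1000 nt away. 

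The sequences below are those of members to which the results return: the strongest PACs away from annotated ends (VOPP1, TNRC18, FXR1, FMC1-LUC7L2), members whose share of their gene differed the same way with L-lactate in both lines (NPEPL1 to CHID1, then BET1 and TLE1), and the PACs in EGFR and PCF11. Bases are DNA letters of GRCh38 in the direction of transcription. The cleavage site is base 50 of the 60-nt sequences and the last base of the 30-nt ones. Capitals mark the AATAAA nearest to the site, or without it the nearest ATTAAA, or without both the nearest variant. An unmarked variant can therefore lie closer to the site than the marked hexamer. The signals searched were AAUAAA or AUUAAA, then 10 variants that differ from AAUAAA at a single base (AGUAAA or UAUAAA or CAUAAA or GAUAAA or AAUAUA or AAUACA or AAUAGA or ACUAAA or AAGAAA or AAUGAA).
VOPP1 (chr7:55453555-55453614, minus strand): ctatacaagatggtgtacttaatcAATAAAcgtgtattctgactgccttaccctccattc
TNRC18 (chr7:5351280-5351339, minus strand): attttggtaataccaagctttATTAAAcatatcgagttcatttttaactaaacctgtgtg
FXR1 (chr3:180971850-180971909, plus strand): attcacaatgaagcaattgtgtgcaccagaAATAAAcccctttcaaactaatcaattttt
FMC1-LUC7L2 (chr7:139419782-139419841, plus strand): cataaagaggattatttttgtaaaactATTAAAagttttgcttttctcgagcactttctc
NPEPL1 (chr20:58705123-58705182, plus strand): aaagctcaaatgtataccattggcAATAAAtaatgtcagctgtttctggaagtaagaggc
TCFL5 (chr20:62843565-62843624, minus strand): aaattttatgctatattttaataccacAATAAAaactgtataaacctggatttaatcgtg
PCCB (chr3:136332540-136332599, plus strand): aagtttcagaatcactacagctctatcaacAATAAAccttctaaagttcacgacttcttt
ARIH2 (chr3:48928614-48928673, plus strand): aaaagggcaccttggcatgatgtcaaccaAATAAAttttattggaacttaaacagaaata
NIPBL (chr5:37064426-37064485, plus strand): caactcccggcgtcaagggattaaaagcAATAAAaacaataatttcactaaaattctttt
FBXL5 (chr4:15667555-15667614, minus strand): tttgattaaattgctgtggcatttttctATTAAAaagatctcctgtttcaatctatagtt
CHID1 (chr11:880863-880922, minus strand): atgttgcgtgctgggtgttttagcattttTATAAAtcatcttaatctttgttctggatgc
BET1 (chr7:93993244-93993273, minus strand): ttttaAATAAAatatattagtcgactgtgt
TLE1 (chr9:81633468-81633497, minus strand): tatataAATAAAagccatttttaaaactgt
EGFR (chr7:55021138-55021197, plus strand): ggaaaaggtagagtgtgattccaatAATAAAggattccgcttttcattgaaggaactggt
PCF11 (chr11:83158851-83158880, plus strand): aaatttgtgAATAAAacatataaaatatgt

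Intronic PACs carried poly(A) signals about as often as 3′ UTR PACs. Among the 698 PACs away from annotated ends, 65.5% (61.9% to 68.9%) had AAUAAA in the 50 nt before the site, against 66.6% (65.8% to 67.4%) of 3′ UTR PACs. With AUUAAA added, these were 83.2% (80.3% to 85.8%) and 83.4% (82.8% to 84.0%). The median gap from the hexamer to the site was 16 nt in both. UGUA, the motif bound by the CFIm factor of which NUDT21 is a subunit, was within 100 nt upstream of 59.2% (55.5% to 62.8%) of them and of 58.0% (57.2% to 58.8%) of 3′ UTR PACs. UGUGU or GUGUG in the 40 nt after the site was found in 21.8% and 20.9%, and GUAAGU, a strong 5′ splice site sequence, in the 200 nt before it in 4.30% and 3.95%. The intervals of each of these pairs overlapped. Over all 17627 PACs, AAUAAA was at 66.4%, either main signal at 83.0%, UGUA at 56.9%, UGUGU or GUGUG at 20.4% and GUAAGU at 3.97%. Motifs were sought on the transcribed strand only, and a match is a description of the letters. GC content of the 200 nt before the site had a median of 35.5% against 36.5%.

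The 219 PACs at known ends had AAUAAA in 73.5% (67.3% to 78.9%). Counting both main signals, the shares over all 917 members were 67.4% with AAUAAA and 84.5% with either. Lack of any signal was seen in 6.45% (4.85% to 8.52%) of the 698 and in 4.39% (4.06% to 4.75%) of 3′ UTR PACs. A-rich genomic sequence after the site, from which an oligo(dT) primer can start without a poly(A) tail, was also more frequent, and neither pair of intervals overlapped: at least 7 As in 10 nt followed 3.15% (2.09% to 4.73%) of the 698 and 1.45% (1.26% to 1.66%) of 3′ UTR PACs. Of all members, 23 (2.51%) had it, ARIH2 among the named ones.

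Signals were no rarer at weak intronic PACs than at weak 3′ UTR PACs. Of the 316 intronic PACs away from ends whose best TPM was above 3 and up to 5, 83.2% (78.7% to 86.9%) had AAUAAA or AUUAAA, against 76.9% (74.9% to 78.9%) of 3′ UTR PACs at that level. Above 10 TPM the shares were 85.1% (76.9% to 90.8%, 101 PACs) and 86.0% (85.3% to 86.7%). The dominant base was the same in all libraries less often than at 3′ UTR PACs: of the 567 listed in at least 2 libraries, 79.0% had the same dominant base in all libraries that listed them and 99.5% stayed within 24 nt, against 87.3% and 97.0% of 3′ UTR PACs. Levels were not matched in this comparison. A listed intronic PAC away from ends had a median of 28 to 42.5 tags, and a 3′ UTR PAC 121 to 176. The distance of 24 nt is also the one within which sites were joined into a cluster.

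Some members had a near-identical copy elsewhere. For 16 of the 917, at least 150 of the 200 nt before the site matched a transcript of another locus with 95% identity or more. The strongest was the PAC in intron 1 of MECOM, a transcription factor gene, which lay 54 nt past a pseudogene copy of RPL22 (RPL22P1) and had 49.6, 38.4, 33.3 and 44.4 TPM. RBFOX2 (copy of RPL41) had 10.9 to 14.6 TPM and PLEKHA7 (copy of RPL36A) 4.18 to 5.67 TPM. Tags of the copies and of these introns may have been exchanged in alignment, so their levels are uncertain.

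Position in the intron was uneven. Of the 698, 520 lay in an intron of the gene's canonical transcript, 110 past that transcript's end and 68 before its start, in introns of other transcripts. The 520 lay in long introns, with a median of 7853 nt (quartiles 3815 and 17774 nt) against 1537 nt for all 115380 canonical introns of coding genes with a PAC. They nevertheless fell into introns about as length alone would place them. Of the 510 in genes with several introns, 38.8% (34.7% to 43.1%) lay in the longest, which made up 39.1% of the intron length on average. Of all 520, the first intron held 19.4% (16.3% to 23.0%) against 21.9% of the length. The last intron held 15.2% (12.4% to 18.5%), above its 10.8% of the length.

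Within the intron, the start was favoured. Of the intronic PACs, 260 of 520 (50%, 45.7% to 54.3%), were in the first 33.3% of their intron's length and 102 (19.6%, 16.4% to 23.2%) in the last 33.3%. The median distance to the 5′ splice site was 2105 nt (quartiles 914 and 5811 nt). Within 1000 nt of it lay 27.3% (23.7% to 31.3%), and within 1000 nt of the 3′ splice site 15.2% (12.4% to 18.5%), where such a stretch made up 20.4% of the intron on average. Along the whole gene there was no such tilt, since 50.7% (47.0% to 54.4%) of the 698 lay before the middle of their gene.

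Intronic PACs were a small and weak part of each library. They were 4.07% (3.77% to 4.40%) and 3.92% (3.62% to 4.24%) of the PACs listed in KYSE30 with L-lactate and in control, and 4.49% (4.17% to 4.84%) and 4.48% (4.16% to 4.83%) in TE-1. By TPM they held 1.26% (1.25% to 1.27%), 1.24% (1.23% to 1.25%), 1.26% (1.25% to 1.26%) and 1.28% (1.27% to 1.28%), so that L-lactate was the higher library in KYSE30 and the lower one in TE-1. Those at annotated ends held 0.945%, 0.946%, 0.923% and 0.954%. Away from annotated ends they held 0.315% (0.311% to 0.320%), 0.294% (0.290% to 0.298%), 0.333% (0.329% to 0.337%) and 0.323% (0.319% to 0.326%). That last share was higher with L-lactate in both lines, by more than the counting error and by little in size, unlike the share of all members. Whether any of these differences exceeded the spread between libraries could not be seen with 1 library each. Away from annotated ends, 440 PACs with L-lactate and 426 in control were listed in KYSE30, and 476 and 478 in TE-1. Of those above 5 TPM in a library of the line, 108 were higher and 74 lower in KYSE30, and 113 and 99 in TE-1. Single PACs weighed in the sum: in TE-1 it was 3087 and 3003 TPM, of which TNRC18 had 94.0 and 63.4 TPM. A listed member away from ends had a median of 3.77 to 4.13 TPM, resting on 28 to 42.5 tags, against 16.8 to 17.2 TPM for a 3′ UTR PAC.

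They were also listed less widely. Of the 698, 241 (34.5%, 31.1% to 38.1%) were listed in all 4 libraries and 131 (18.8%) in 1, and 321 (46.0%, 42.3% to 49.7%) were listed in both lines. For 3′ UTR PACs, 77.4% were in all 4 and 82.6% (81.9% to 83.2%) in both lines. The gap was also present within ranges of best TPM. Between 5 and 10 TPM, 59.2% (52.5% to 65.6%) of intronic and 71.3% (69.5% to 73.1%) of 3′ UTR PACs were listed in both lines. Above 10 TPM these shares were 72.3% (62.9% to 80.1%) and 93.7% (93.2% to 94.2%), but that range has no upper limit and levels within it were not matched. Between 3 and 5 TPM they were 29.7% (24.97% to 35.01%) and 39.7% (37.4% to 42.1%), and up to 3 TPM 41.4% (30.6% to 53.1%) and 65.2% (59.2% to 70.8%), so that listing did not follow level throughout.

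Several of the strongest members away from annotated ends differed more between the lines than between treatments. VOPP1, which encodes a vesicle protein often overexpressed in tumors, led with 269, 225, 8.15 and 8.85 TPM. Its gene as a whole had 935, 797, 90.9 and 77.5 TPM, so the PAC held 28.8%, 28.2%, 8.96% and 11.4% of it. Both the level and the share were thus higher in both KYSE30 libraries. The PAC lay past the canonical transcript and 17048 nt from the nearest annotated end, and its hexamer is the AATAAA shown above.

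TNRC18 had 25.2, 16.3, 94.0 and 63.4 TPM, in intron 17 of 29 and 529 nt after the 5′ splice site, and it was the only PAC within its gene. Its level was higher in TE-1 and, within each line, in the L-lactate library. FXR1, a gene for an RNA-binding protein of the FMRP family, had 58.7, 53.6, 38.7 and 31.8 TPM at a site 83 nt past an annotated end. It held 29.4%, 25.1%, 35.2% and 27.4% of the gene, more with L-lactate in each line.

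In LUC7L2, whose product is a U1 snRNP-associated splicing factor, a PAC in the last intron had 30.1, 27.9, 70.1 and 49.8 TPM. The share depends on the gene model: within the readthrough gene FMC1-LUC7L2 it was 65.7%, 59.3%, 80.7% and 67.9%, and with PACs up to 5 kb past the gene end it was 24.5%, 20.04%, 39.4% and 27.8%. Under either model the TE-1 L-lactate library had the highest share. C6orf62 had 32.1, 25.2, 51.8 and 39.0 TPM in intron 3 of 4, or 13.4%, 10.7%, 22.6% and 17.2% of the gene. Again TE-1 was higher than KYSE30 and, within each line, L-lactate higher than control.

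The strong PACs of DST and PPL were listed in KYSE30 alone. DST, the dystonin gene, had 63.3 and 65.5 TPM in intron 22, and PPL, the periplakin gene, 61.6 and 60.7 TPM in intron 1. Levels with L-lactate and in control were close for both. PPL as a gene had 213 and 211 TPM in KYSE30 and 66.0 and 66.5 TPM in TE-1, so the host gene was expressed in TE-1 while the intronic PAC was not listed. DST as a gene was at 422 and 412 TPM in KYSE30 and at 37.9 and 32.2 TPM in TE-1.

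As a share of their gene, most members were minor. In genes with at least 10 TPM in all 4 libraries and another PAC in an exon, 425 members away from annotated ends could be followed. Their median share was 3.56%, 2.80%, 4.51% and 3.95%, and between 7 and 11 of them exceeded 50% in a library. Within that rule, DBF4B, which encodes an activator of the CDC7 kinase, had one of the highest shares: 67.3%, 67.9%, 92.5% and 90.1% at a site in its last intron. SLC16A3, the gene of the lactate exporter MCT4, showed 81.0%, 83.5%, 78.4% and 75.5%, but with PACs up to 5 kb past the gene end 44.9%, 55.9%, 62.2% and 60.6%, so that KYSE30 was higher under the first gene extent and TE-1 under the second. Under the same rule but with members at annotated ends included, the 5 highest mean shares were at known ends (RPS29, CST3, PUDP, YAE1 and PDCD6-AHRR), each at 88.6% or more in every library.

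L-lactate against control was compared in each line by the change in a member's share of its gene, with a change of at least 10 percentage points counted. In KYSE30, 31 of 483 members (6.42%, 4.56% to 8.97%) had a higher share with L-lactate and 20 (4.14%, 2.70% to 6.31%) a lower one. Over all PACs of genes with at least 2 PACs, 4.72% had a higher and 4.86% a lower share. In TE-1, 31 of 513 members (6.04%, 4.29% to 8.45%) were higher and 25 (4.87%, 3.32% to 7.09%) lower, against 5.56% and 5.23% of all PACs. All 4 intervals contained the value for all PACs, so no count over all members stood apart from the background. In 25 of the 51 calls in KYSE30 and 29 of the 56 in TE-1, the PAC was not listed in 1 library and counted as 0. Called members also lay in genes with fewer tags in the lower library, with medians of 135 and 177.5 against 340 and 455 for all members compared. Away from annotated ends the counts were 21 and 18 of 387 in KYSE30 and 20 and 18 of 406 in TE-1. At annotated ends, 10 of 96 (10.4%, 5.76% to 18.1%) were higher with L-lactate in KYSE30. For TE-1 this was 11 of 107 (10.3%, 5.84% to 17.5%). Both intervals lay above the values for all PACs, 4.72% and 5.56%. Lower shares were seen for 2 of 96 and 7 of 107, with intervals that contained the values for all PACs. This division was made after the data were seen, and the cause was not tested. The median change over all members compared was 0.348 percentage points in KYSE30 and 0.0626 in TE-1. That of all PACs was 0 in both lines.

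By level, few members passed a 2-fold difference. In KYSE30, 7 of 294 were higher and 4 lower with L-lactate, against 0.665% and 0.574% of all PACs, and in TE-1 4 of 332 were higher and 8 lower, against 0.86% and 0.607%. These shares were 2.38% (1.16% to 4.83%), 1.36% (0.530% to 3.45%), 1.20% (0.470% to 3.06%) and 2.41% (1.23% to 4.68%). The intervals for higher in KYSE30 and lower in TE-1 lay above the background. Those for lower in KYSE30 and higher in TE-1 contained it. At like level the intervals overlapped: between 5 and 10 TPM, 9 of 156 members (5.77%, 3.06% to 10.6%) and 3.47% (2.79% to 4.32%) of 3′ UTR PACs passed in KYSE30, and 12 of 180 (6.67%, 3.85% to 11.3%) and 4.01% (3.27% to 4.91%) in TE-1. In the line of its call no called member exceeded 11.9 TPM, and 6 of the 11 in KYSE30 and 8 of the 12 in TE-1 were not listed in one of the libraries compared. No member was called by level in both lines. The median log2 ratio was 0.04 in KYSE30 and 0.03 in TE-1, beside 0.00 and 0.04 for all PACs.

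The change was then compared between the lines. With 5 percentage points in both, 14 of 523 members (2.68%, 1.60% to 4.44%) were higher with L-lactate, where 4.13% of all PACs were, and 7 (1.34%, 0.65% to 2.74%) were lower, where 4.11% were. In the controls, 302 of the 523 in KYSE30 and 275 in TE-1 had a share under 5% and could not have been lower by that much. Of the 698, 11 and 6 were among these. From 10 percentage points, 3 members, 0.574% (0.195% to 1.67%), differed the same way in both lines, against 1.37% of all PACs: BET1 and TLE1 upward and FBXL5 downward.

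**Figure D1:**
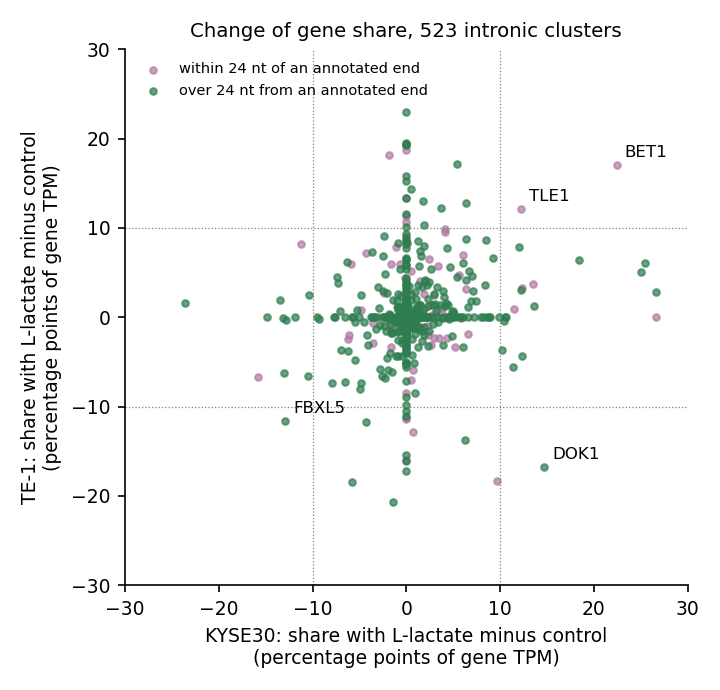
Change of each member's share of gene TPM with L-lactate in KYSE30 (x axis) and TE-1 (y axis), in percentage points, for the 523 members of genes with at least 10 TPM in all 4 libraries and another PAC in an exon; each point is 1 PAC and dotted lines mark 10 percentage points. BET1 and TLE1 lie beyond the lines in the upper right, FBXL5 in the lower left, and DOK1 went up in KYSE30 and down in TE-1.

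The members named next were chosen for a change of at least 5 percentage points in the same direction in both lines, so their values are a description and their intervals give the counting error only. Among those with a higher share, BET1, a SNARE gene of ER-to-Golgi transport, ranked first by the smaller of the changes in both lines. Its PAC at a known end had 17.6, 13.1, 13.1 and 11.4 TPM and 59.7%, 37.3%, 46.4% and 29.4% of the gene. The difference was 22.4 percentage points (95% Newcombe interval 13.4 to 30.9) in KYSE30 and 17.0 (9.26 to 24.6) in TE-1. TLE1, a Groucho-type corepressor gene, had a PAC 1 nt past a known end in intron 7 with 11.3, 7.95, 10.04 and 5.97 TPM, or 44.3%, 32.1%, 51.8% and 39.7%. That the L-lactate library was the higher one in each line follows from how both were chosen.

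Away from known ends, ARIH2, a ubiquitin ligase gene, had 11.7, 7.95, 42.0 and 37.0 TPM in intron 3, 850 nt after the 5′ splice site, and 50.3%, 31.9%, 42.1% and 35.6% of the gene. Of the 10 bases after its site 7 are A, and their part in the result was not tested. PCCB, the propionyl-CoA carboxylase beta gene, had 19.8, 12.4, 35.1 and 31.8 TPM and 29.5%, 20.3%, 28.2% and 21.5% of the gene. NPEPL1, an aminopeptidase-like gene, had 8.36, 5.39, 36.1 and 26.8 TPM in intron 6, which was 22.6%, 14.1%, 40.2% and 31.6%. All 3 genes were likewise chosen for a higher share in both lines.

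NIPBL, which encodes the cohesin loader, had a PAC in its last intron, 285 nt past an annotated end. It had 24.1, 19.0, 45.0 and 42.3 TPM and 28.4%, 22.0%, 60.6% and 51.8% of the gene, so that it was higher with L-lactate by 6.41 (1.60 to 11.2) and 8.81 (3.69 to 13.8) percentage points and higher in TE-1 than in KYSE30. TCFL5, a bHLH transcription factor gene, had 4.18 TPM in KYSE30 with L-lactate and 3.19 TPM in TE-1 with L-lactate, and it was listed in neither control. These values rest on 30 and 27 tags and were 12.0% and 7.92% of the gene. In the controls the PAC counted as 0, while the gene had 31.1 TPM in KYSE30 and 32.6 TPM in TE-1. This PAC is a single site, so just under 3 TPM could have gone unlisted, and the direction in TE-1 is not settled. Another PAC in the same intron was listed in all 4 libraries, at 3.35, 1.75, 7.32 and 5.195 TPM.

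Among the members with a lower share, FBXL5, the gene of the iron-sensing F-box protein of a ubiquitin ligase, ranked first in the same way. Its PAC, before the start of the canonical transcript, had 34.98, 54.4, 6.73 and 9.81 TPM and 58.0%, 70.9%, 26.3% and 37.9% of the gene. The differences were -12.9 (-18.8 to -6.94) and -11.7 (-19.7 to -3.28) percentage points. Beside the direction it was chosen for, its share was lower in TE-1 than in KYSE30.

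CHID1 had 41.7, 58.0, 9.80 and 17.4 TPM in intron 10, which was 44.2%, 50.7%, 26.3% and 33.6%, and it differed by -6.54 (-11.5 to -1.50) and -7.29 (-13.4 to -0.87) percentage points. PDCL, for a chaperone of G protein subunits, had 23.8%, 36.8%, 17.8% and 23.98%, and the difference in TE-1 was -6.19 (-13.8 to 1.54). MTA1, a subunit gene of the NuRD complex, had 17.6%, 28.0%, 17.3% and 23.9% on 13 to 57 tags, and KIAA1958 had 57.1%, 65.1%, 56.0% and 63.3%. The intervals of PDCL in TE-1 and of MTA1 and KIAA1958 in both lines contained 0, so counting error alone could give those differences. DNM2, the dynamin 2 gene, had its PAC at a known end with 60.9%, 76.7%, 64.9% and 71.6%, and in TE-1 its interval also reached 0.

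Counted in either direction, differences between the lines were more frequent than differences with L-lactate, among members as over all PACs. The rules differed, since a line difference had to be present both with L-lactate and in control. A share that differed by at least 10 percentage points in the same direction with L-lactate and in control was higher in KYSE30 for 29 of 525 members (5.52%, 3.87% to 7.82%), where 8.08% of all PACs were, and higher in TE-1 for 46 (8.76%, 6.63% to 11.5%), where 8.16% were. The interval for KYSE30 lay below the value for all PACs and that for TE-1 contained it. Cell line and library cannot be told apart here. In 17 of the 29 and 17 of the 46 the PAC was not listed in either library of the other line. Of the 425 members followed in well-expressed genes, 82 were listed in KYSE30 alone, 110 in TE-1 alone and 233 in both.

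Higher in KYSE30, PCBD2, the gene of a pterin dehydratase and transcription cofactor, had 60.1 and 44.8 TPM in intron 2 and 86.2% and 77.3% of the gene, and was not listed in TE-1. None of the signals searched lay before this PCBD2 site. Its nearest annotated end, farther downstream, was that of another gene, ENSG00000263963. AP1S3, an adaptor complex subunit gene, had 66.9 and 52.3 TPM and 76.9% and 74.6%, also with none listed in TE-1. Both genes had 11.1 to 15.8 TPM from other PACs in TE-1. FAM81A had 52.8% and 41.5% in KYSE30 and 9.68% and 15.3% in TE-1. At known ends, MRS2, a mitochondrial magnesium channel gene, had 84.7% and 82.0% against 24.7% and 24.5%, and DNAH14, an axonemal dynein gene, 80.0% and 85.9% against 48.6% and 42.6%.

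Higher in TE-1, DYM, the dymeclin gene of the Golgi, had 21.1 and 18.2 TPM in intron 15 and 61.7% and 53.5% of the gene, while in KYSE30 the gene had 21.3 and 24.5 TPM and the PAC was not listed. POLD3, a DNA polymerase delta subunit gene, had 26.8%, 32.3%, 62.0% and 66.8% in intron 2, and 20.5%, 23.7%, 51.2% and 58.96% with PACs past the gene end. TBC1D22A had 48.2% and 34.8% and VCL, the vinculin gene, 26.3% and 24.7%, on 4.62 to 7.32 TPM, and neither was listed in KYSE30. Of these 4, POLD3 was the one with a share in all libraries, and the values of the lines did not overlap.

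Lists of genes were then read for members. Of all 10807 coding genes with a PAC, 5.76% held a member away from annotated ends. Among 17 genes with known intronic poly(A) sites, of which 12 were measured, PCF11 and RAB10 held one. PCF11, a subunit gene of cleavage factor II, had its intron 1 PAC at a known end with 15.1, 15.1, 28.8 and 26.2 TPM. It was 64.3%, 65.9%, 65.2% and 66.8% of the gene in the 4 libraries. The level was higher in TE-1, and the intervals of the 4 shares overlapped. RAB10, a small GTPase gene, had 4.32, 3.77, 3.54 and 2.89 TPM, or 1.72% to 2.54%.

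Of 22 cleavage and polyadenylation factor genes, of which 20 were measured, PCF11 and CPSF6 had a member. CPSF6, the partner of NUDT21 in CFIm, had 3.08 TPM in the TE-1 control alone, 1.83% of its gene. Of 25 DNA repair genes, of which 24 were measured, ERCC6 and FANCA had members away from annotated ends. ERCC6, for transcription-coupled repair, had 4.02 and 3.75 TPM in TE-1 alone and FANCA had 2 PACs that did not exceed 5.195 TPM.

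Of 32 receptor tyrosine kinase genes, of which 21 were measured, EGFR and IGF1R had one. EGFR, a receptor that is often amplified in squamous tumors, had a PAC in intron 1, 1822 nt after the 5′ splice site and with AATAAA as printed. It had 32.5 TPM with L-lactate and 34.7 TPM in control in KYSE30 and was not listed in TE-1. The whole gene had 906, 901, 140 and 126 TPM, so the PAC held 3.58% (3.16% to 4.06%) and 3.86% (3.42% to 4.35%) in KYSE30. These intervals overlapped. IGF1R had a PAC at the end of a noncoding transcript in intron 1, at 1.67 to 4.14 TPM where listed.

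Genes whose products hold back intronic polyadenylation were at similar levels with L-lactate and in control. Of 21 such genes (U1 snRNP proteins, CDK12, CDK13, SF3B1, elongation factors and others), 19 were listed in all 4 libraries, and none of these differed 2-fold in gene TPM. No member away from annotated ends was assigned to these genes, apart from the PACs described above that lie within LUC7L2 and were counted under FMC1-LUC7L2. Their log2 ratios lay between -0.18 and 0.43 in KYSE30 and between -0.17 and 0.31 in TE-1. CDK12 had 58.3, 52.0, 43.5 and 37.1 TPM and SNRNP70, the U1-70K gene, 241, 242, 199 and 202 TPM. PABPN1 was listed at 3.90 TPM in KYSE30 with L-lactate and 3.46 TPM in the TE-1 control only, and SCAF4 had no PAC within the gene.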

How the data were processed

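PAS-seq libraries were made from KYSE30 and TE-1 cells, 1 per line and treatment. The authors trimmed reads with FASTX-Toolkit, aligned them to GRCh38 with HISAT2, called sites with CAGEr, left out sites under 1 TPM and joined sites within 24 nt into clusters. The deposited values are tags scaled to library size (TPM here, an RPM unit), which do not depend on transcript length. From them, PACs were placed on GENCODE 44, a member in several coding genes was assigned to the shortest, and gene TPM was summed over PACs inside the gene. A PAC not listed counted as 0. Shares were compared in genes with at least 10 TPM, and log2 ratios used a pseudocount of 1 TPM in PACs that reached 5 TPM. Tags recovered from TPM and total tags served only for 95% Wilson and Newcombe intervals. A near-identical copy was a BLAST 2.17.0 match of at least 150 nt at 95% identity. Sequence came from the genome given for this work. Python 3.11.15 with pandas 2.3.3 and scipy 1.17.1 was used, and call functions were tested on simulated data.

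Members named were the 10 of highest mean TPM, the 5 of highest mean share, up to 5 that changed share each way in both lines by 5 percentage points, up to 5 higher in each line, and all in the gene lists. The same rules were applied again to the 698 PACs away from ends, a choice made after values were seen. The members and lists were chosen with earlier results of these data known. Depth was 7174991 to 10393799 tags. Alternatives changed the minimum TPM, placement, annotation, signal window, size of change, pseudocount, scaling, unlisted PACs and gene extent. Some members' values or sequences are not reported here.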

Additional observations from a re-analysis of the deposited data

Results flagged for a closer look

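DOK1, the gene of a docking protein downstream of receptor tyrosine kinases, held an intronic PAC whose share of gene TPM went opposite ways in the lines. The PAC had 1.53 TPM in KYSE30 with L-lactate and was not listed in the KYSE30 control. In TE-1 it had 1.54 TPM with L-lactate and 3.46 TPM in control. Counted so, its share was higher with L-lactate by 14.7 percentage points in KYSE30 and differed by -16.8 percentage points in TE-1. A PAC that is not listed can still be present below the list limits, so the direction in KYSE30 is not settled. The gene as a whole had 10.2 to 12.99 TPM. The difference between the lines was not tested, since there was 1 library per condition.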

How the results depend on the processing

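Each L-lactate library was compared with the control of its own line, with 1 library per condition. A fit of treatment with the 2 lines as pairs was not run. Intronic PACs were 5.20% of the PACs listed in any library, and 1.26% of listed TPM on average over the libraries. In the same measures they were 3.23% and 1.18% with a minimum of 5 TPM, 4.52% and 0.377% with whole clusters outside exons, 3.28% and 0.258% over 200 nt from an exon, 7.92% and 2.41% with exons of protein_coding transcripts only, and 3.96% and 0.316% without PACs at annotated ends. With 6 As in a row, 0.981% were A-rich.

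Share counts follow as KYSE30 up, KYSE30 down, TE-1 up, TE-1 down, higher in KYSE30 and higher in TE-1. They were 76, 56, 86, 59, 59 and 90 at 5 percentage points, 9, 3, 2, 2, 9 and 11 at 20, and 16, 10, 14, 13, 12 and 19 among PACs listed in the libraries compared. With a minimum of 5 TPM, KYSE30 down was 12, TE-1 up 15, TE-1 down 7 and higher in TE-1 28. Without PACs at annotated ends TE-1 up was 20, and the median log2 ratio in KYSE30 was 0.11. Level counts at 1.5-fold were 29 and 20 in KYSE30 and 28 and 27 in TE-1, where fewer were up than down at 2-fold, and both 4-fold and a pseudocount of 5 left 1 down in KYSE30 and 2 up in TE-1. Leaving out PACs at annotated ends, and requiring intervals that do not overlap, were chosen after seeing the data. The other 62 values for these results stayed within their limits. The cause of these shifts was not tested.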
